A study of Mus musculus with 20 samples.

Results

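The replication-dependent and linker histone genes were followed in spleens of mice carrying a transplanted T-cell acute lymphoblastic leukemia (T-ALL) in which Acly can be deleted. Members were the genes whose symbol begins with an H1, H2A, H2B, H3 or H4 cluster name (H1f, H2ac, H2bc, H3c, H4c) and whose value was above 0 in at least 4 libraries of a table. All 67 matching symbols met that rule, 67 of 26099 genes listed in the acute table and 67 of 26486 in the survival table. They comprised 7 H1, 18 H2A, 18 H2B, 11 H3 and 13 H4 genes. Polyadenylated RNA from 20 leukemic spleens was sequenced with strand-specific libraries. All hosts were sublethally irradiated and received the same kind of Acly conditional knockout leukemia by vein, so the controls carried the conditional allele too. In the acute arm, overtly leukemic mice received corn oil (6 controls) or tamoxifen at 3 mg per mouse (4 knockouts), with spleen collection 72 h afterwards. In the survival arm, corn oil (5 controls) or the same tamoxifen dose (5 knockouts) was given 48 h after the transplant, and mice were followed to the humane endpoint. The sources used here give no strain, age or Cre driver, and no sort for leukemic cells is named. An effect of tamoxifen itself cannot be told apart from one of the deletion. The labels carry a different animal code for each library without stating outright that each is a separate mouse, so p-values measure the spread between libraries.

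Core histones H2A, H2B, H3 and H4 form the octamer around which DNA is wound, and H1 linker histones bind the DNA between octamers. Cells make most of this protein in S phase from clustered genes whose mRNAs have no introns and end in a conserved stem-loop instead of a poly(A) tail. The stem-loop is bound by SLBP, which directs processing, export and translation, and the mRNAs are degraded when DNA synthesis stops. A smaller set of histone genes, H1f0 and H1f10 among them, gives polyadenylated mRNA in and outside S phase. A library prepared from polyadenylated RNA therefore sees the replication-dependent genes through a minority of their transcripts.

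The stem-loops are shown because they form the end of histone mRNAs made without a poly(A) tail. Of the 67 members, 60 were matched by symbol to GENCODE M21 transcripts, and 41 of these held the 16-base stem-loop (6-base arms and a 4-base loop), against 0.083% of all 141767 transcripts. In 23 of the 41 the annotated transcript ended within 100 bases of it, and in 18 it ran further. A poly(A) signal lay near the end of 7 of these 18, H1f2 and H4c9 among them, and of 1 of the 23. A stem-loop in the annotated transcript therefore does not by itself mean that the tail is missing. The remaining 19 annotated transcripts held none, among them the 3 members with a poly(A) signal near the end and no stem-loop, H1f0, H1f10 and H2bc21. A missing stem-loop says only that these letters are not in the annotated transcript. The stem-loop of the DNA strand is printed 5′ to 3′ in capitals with 5 flanking bases in lower case where the transcript held them.

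H1f2: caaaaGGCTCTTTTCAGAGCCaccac
H1f4: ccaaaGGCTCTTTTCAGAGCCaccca
H2ac24: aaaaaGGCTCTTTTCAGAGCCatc
H2bc12: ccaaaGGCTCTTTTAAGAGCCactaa
H3c3: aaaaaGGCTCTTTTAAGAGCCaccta
H3c6: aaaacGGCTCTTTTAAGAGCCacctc
H4c2: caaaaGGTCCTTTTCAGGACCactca
H4c9: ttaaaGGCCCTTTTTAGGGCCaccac

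The form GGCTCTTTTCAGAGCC was the most frequent and was present in 23 members: 3 of 3 H1, 9 of 10 H2A, 7 of 9 H2B and 4 of 8 H3 genes with a stem-loop. None of the 11 H4 stem-loops had that form. Of those 11, 6 had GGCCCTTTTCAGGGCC, 2 had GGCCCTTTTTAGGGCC, 2 had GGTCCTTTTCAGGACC and 1 had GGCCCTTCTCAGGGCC. The variant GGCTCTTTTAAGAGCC was held by 2 H2B genes, H2bc12 among them, and by 3 H3 genes, H3c3 and H3c6 among them.

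H2ac24, an H2A gene of the large cluster on chromosome 13, stood far above every other member. The acute controls ranged from 15644 to 21914 normalized counts (median 17853), and the acute knockouts had 20572, 17015, 21627 and 17235. It alone held between 75.2% and 84.5% of the summed value of all 67 members in every library. Per kilobase of annotated transcript its acute control level was 38120, followed among the 60 matched members by H1f0 at 1114 and H4c9 at 477. Its transcript also had a sequence feature that only 1 other member shared. In H2ac24 and in H2ac23 the bases directly before the stem-loop are a run of 12 adenines, printed in capitals before the stem-loop in lower case.

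H2ac24: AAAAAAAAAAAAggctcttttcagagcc
H2ac23: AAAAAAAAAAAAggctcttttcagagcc

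A run of at least 12 adenines was present in 4.07% of all transcripts and in 0.96% of the 50635 transcripts of 300 to 800 bases. Only 1 other matched member had such a run: H2ac6 had 15 adenines, ending 839 bases downstream of the start of its stem-loop. The levels of these 3 genes differed widely, since H2ac23 stood at 13.2 and H2ac6 at 3.33 per kilobase in the acute controls. The assignment of reads between close copies is uncertain here. Of the 31-base words of H2ac24 only 6.6% were found in no other gene, and for H2ac23 this share was 6.2%. Summing both genes gave an acute ratio of knockout to control mean of 1.04. H2ac23 was too low to move it, at a mean of 6.35 normalized counts in acute controls against 18374 for H2ac24. H2ac24 shared words with 25 other genes, so the sum does not show how reads were split. Sequence sharing was general: 38 of 60 matched members had under 50% of unique 31-base words (median 40.5%), and only H1f0 and H1f10 shared none. Values of single H2A, H2B, H3 and H4 genes are therefore estimates of how the quantifier split shared reads.

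**Figure D1:**
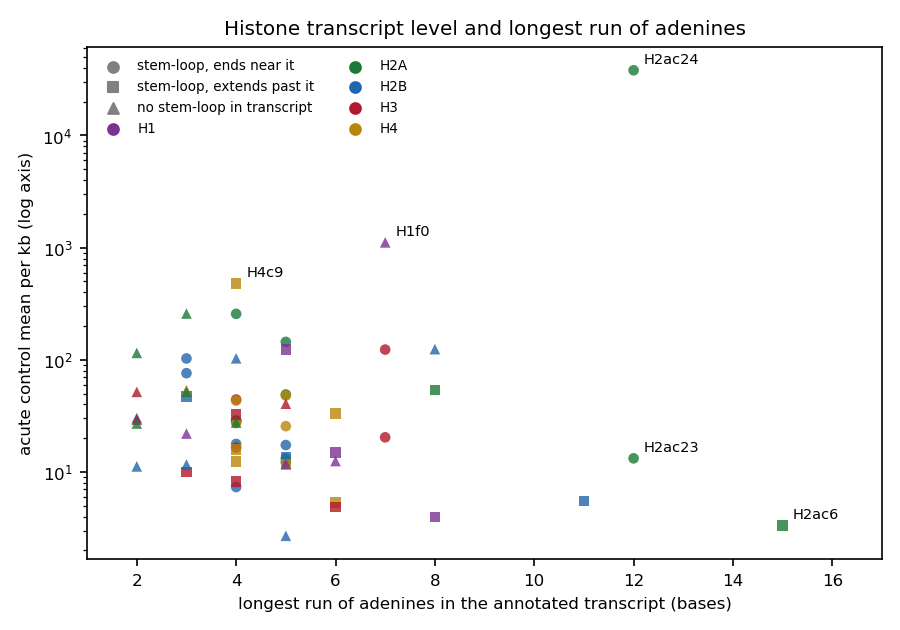
Acute control mean per kilobase (log axis) of the 60 matched histone genes against the longest run of adenines in the annotated transcript, with colors for class and symbols for the transcript end. H2ac24 (38120 per kilobase) and H2ac23 (13.2) share a run of 12 adenines but lie far apart in level.

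Below H2ac24 and H1f0 the family was thinly covered. In the acute arm, 2 members had a mean of 500 or more, 11 a mean from 50 to under 500, 35 from 10 to under 50 and 19 under 10. The survival counts were 2, 12, 32 and 21. Every member was above 0 in at least 6 libraries. The member closest to the limit of the rule was H2bc23, an H2B gene above 0 in 6 of 10 libraries of each table. Together the members made up 0.103% to 0.134% of the summed values of an acute library and 0.0882% to 0.138% of a survival library.

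**Figure D2:**
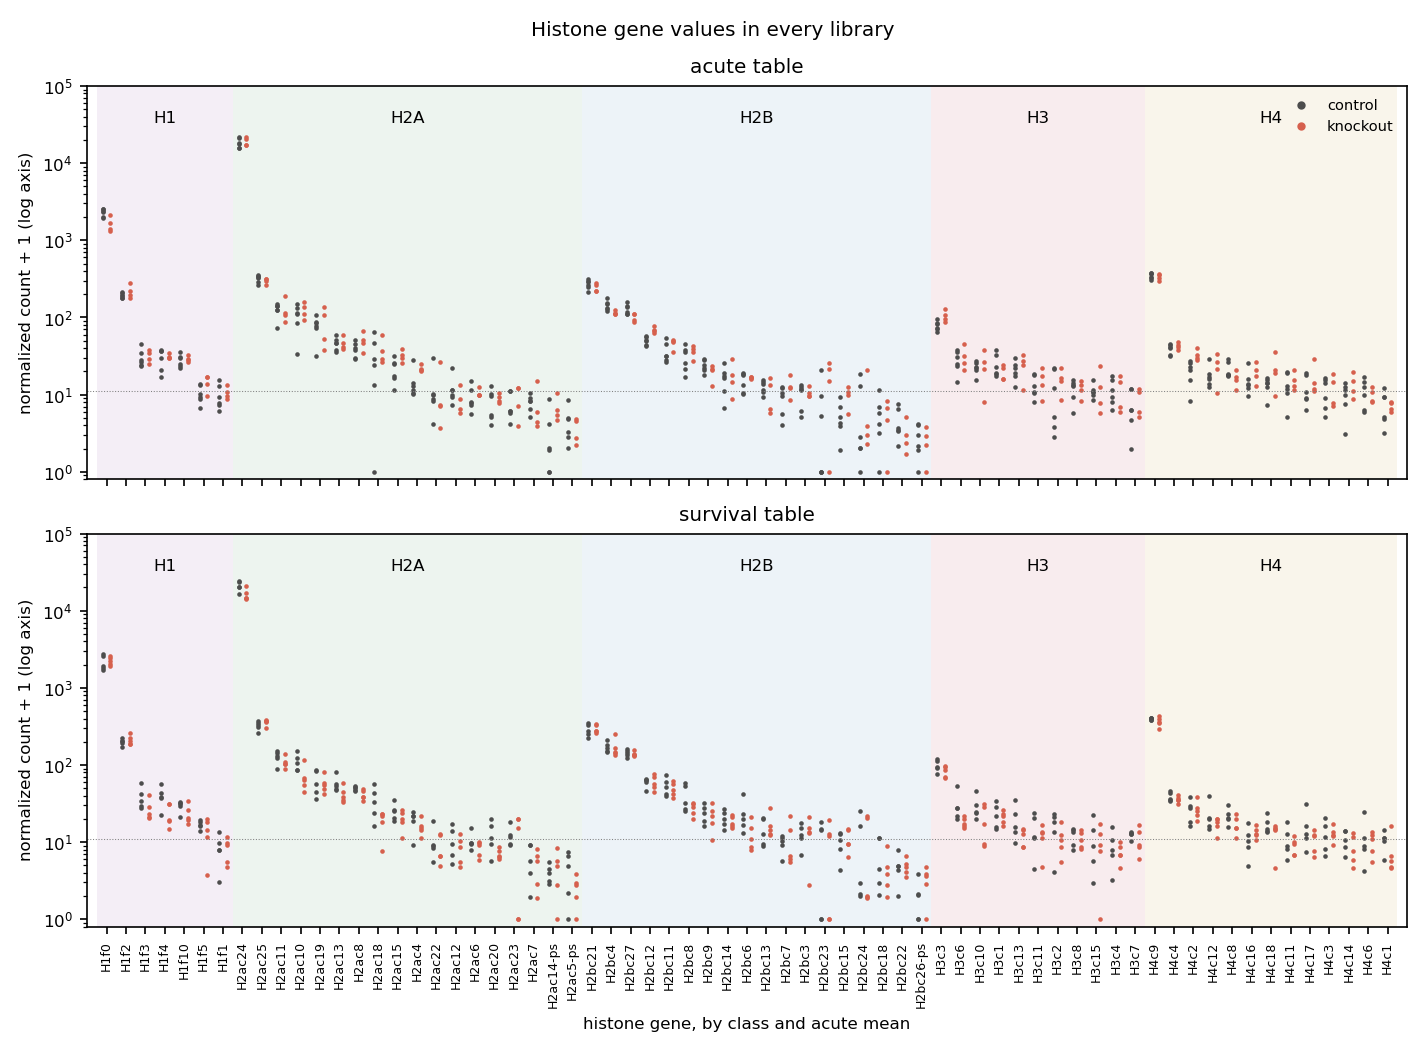
Normalized count plus 1 (log axis) of all 67 histone genes in every library of the acute (top) and survival (bottom) tables, gray for controls and red for knockouts, grouped by class; the dotted line marks a count of 10. H2ac24 lies highest (15644 to 21914 in acute controls), H1f0 next (1920 to 2574), and most other members lie under 50.

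The targeted gene, Acly, which makes cytosolic acetyl-CoA from citrate, was lower in the knockouts of both tables without overlap. It averaged 7735 ± 298 normalized counts (SD, n = 6) in acute controls and 5670.0 ± 766 (SD, n = 4) in acute knockouts, a log2 fold change of -0.46 (p = 0.00476 in an exact two-sided permutation test, the smallest value 210 arrangements allow). It averaged 7889 ± 561 in survival controls and 3091 ± 712 in survival knockouts (SD, n = 5 each), a log2 fold change of -1.38 (p = 0.00794 in the same exact permutation test, the smallest value 252 arrangements allow). Library totals lay between 19432235 and 20731983 normalized counts for the acute arm and between 19998354 and 21623571 for the survival arm. In the acute knockouts many markers of other spleen cells rose: 14 of 14 neutrophil, 11 of 12 monocyte and macrophage, 10 of 10 B cell, 5 of 6 plasma cell, 6 of 6 NK and cytotoxic, 3 of 5 dendritic and 0 of 12 erythroid genes passed the test, and each that passed was higher. T cell genes moved the other way, 18 of 20 lower. Of all genes tested in that table, 16.7% passed as higher and 14.7% as lower. The summed neutrophil markers lay at 12131 to 49764 in the controls of that arm against 180849 to 612169 in its knockouts, and the summed T cell markers at 303391 to 314326 against 201759 to 269454. No gene of these 8 lists passed in the survival table, where 0.0124% of all genes tested did. In bulk spleen, fewer cells of a type cannot be told apart from less RNA per cell.

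Few histone genes passed the test in either arm. Differences were tested with limma on log2(value + 1) over every gene with at least 10 normalized counts in at least 4 acute or 5 survival libraries, and a gene was called at a Benjamini-Hochberg adjusted p under 0.05. For the acute arm, 52 of the 67 members were tested and 2 were called (3.85%), H1f0 lower and H2bc12 higher, where 31.4% of all 16363 genes tested were called (16.7% higher and 14.7% lower). An unadjusted p under 0.05 was reached by 7 members (13.5%), 4 with positive and 3 with negative estimates, where 41.6% of all genes tested reached it. The members were measured less precisely than most genes, with a median standard error of 0.31 against 0.13 over all genes tested. Against other genes of the same mean, their median SD of log2 values among acute controls was 0.54 against 0.55 (mean 5 to 20). It was 0.42 against 0.41 (20 to 50), 0.22 against 0.27 (50 to 150) and 0.15 against 0.15 (150 to 500). For the 2 members at 500 or more it was 0.19 against 0.09. The 95% intervals of 45 of the 52 crossed 0, and those of 33 lay within -1 and 1.

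For the survival arm, 47 members were tested and 0 were called by limma, where 0.0124% of 16136 genes were called, which is 2 genes. An unadjusted p under 0.05 was reached by 6 members (12.8%), all with negative estimates. Of all genes tested 8.74% reached it, 827 with positive and 584 with negative estimates. Control and knockout values overlapped for all 47, where 2.01% of all genes tested had groups without overlap. The estimates leaned in opposite directions in the arms. Among acute estimates, 36 members had a positive and 16 a negative estimate, with a median of 0.14 against -0.02 over all genes tested, but under quantile normalization the split became 21 positive and 31 negative (median -0.11 against -0.14), and scaled to Trbc1 and Trbc2 it became 49 positive and 3 negative (median 0.52 against 0.35). Among survival estimates, 8 had a positive and 39 a negative estimate, with a median of -0.23 against 0.01 over all genes, and 37 or more were negative under each other scaling. Of the 45 members tested in both tables, 29 were positive in acute and negative in survival, 4 the reverse, 4 positive in both and 8 negative in both. Members share reads and libraries, so these counts are a description of 1 family and not independent evidence.

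**Figure D3:**
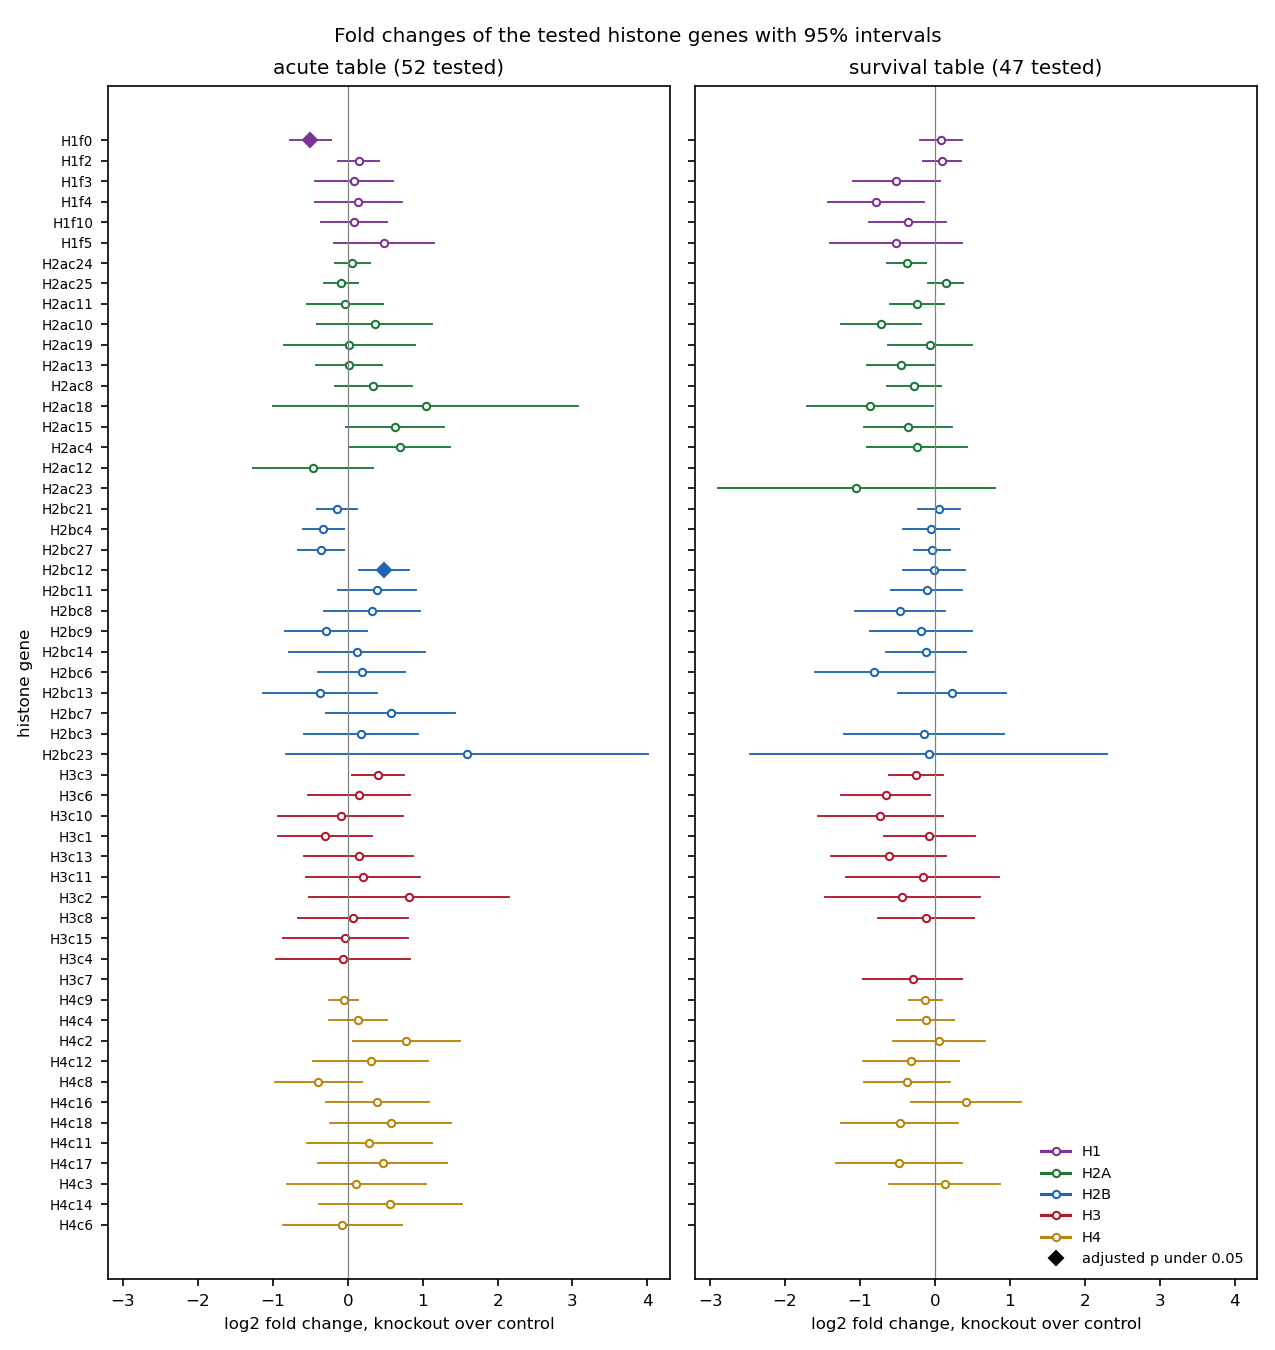
Log2 fold change of knockout over control with its 95% interval for each tested histone gene in the acute (52 genes) and survival (47 genes) tables, colored by class; filled diamonds mark an adjusted p under 0.05. H1f0 and H2bc12 are the 2 diamonds, both in the acute panel, and 39 of 47 survival estimates lie below 0.

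Among the linker histones, H1f0 fell in the acute knockouts. H1f0 encodes a linker histone associated with differentiated and slowly dividing cells, its transcript carries a poly(A) signal, and it shares no 31-base word with another gene. The acute controls ranged from 1920 to 2574 normalized counts (median 2343), and the knockouts had 2139, 1682, 1332 and 1405. Knockouts 2, 3 and 4 lay below every control and knockout 1 lay within the control range. The means were 2289 ± 267 (SD, n = 6) and 1639.6 ± 366 (SD, n = 4), a log2 fold change of -0.50 (SE 0.13, limma adjusted p = 0.0113). The call held in all 10 fits that left out a single library, with fold changes between -0.63 and -0.41.

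Markers of other cell types differed between the same groups, and their part in the H1f0 values was not tested. A non-T-cell score was taken as the mean over all tested markers of the other cell types of the log2 value, centred per gene; acute controls lay between -1.12 and -0.29 and acute knockouts between 0.43 and 1.71. Leaving out acute knockouts 2 and 3, the libraries with the highest non-T-cell score (1.71 and 1.46), gave -0.39 (adjusted p = 0.119). Scaling the libraries to equal Trbc1 and Trbc2, the T cell receptor beta constant genes, gave -0.12 (adjusted p = 0.496), where the median of all genes became 0.35. Taking the non-T-cell score into the fit gave -0.09 (adjusted p = 0.983), but this score separates the groups without overlap, and neither Acly nor any member was called in that fit. Acute knockouts 1, 2, 3 and 4 had scores of 0.43, 1.71, 1.46 and 0.88 and H1f0 values of 2139, 1682, 1332 and 1405 normalized counts. H1f0 did not pass the test in the survival table. The controls had 1702, 1821, 1892, 2592 and 2732 and the knockouts 1946, 2229, 2426, 2574 and 2057, a log2 fold change of 0.08 with an interval from -0.20 to 0.37. The survival knockouts lay within the range of the survival controls.

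The other H1 genes did not pass in either table. H1f2, the most abundant S phase linker histone here, averaged 193 ± 14.3 in acute controls and 217 ± 43.6 in acute knockouts, and its estimate was positive in both tables (0.15 and 0.10), turning to -0.09 in the acute table under quantile normalization. H1f4, another S phase linker histone, had 21.5, 37.2, 36.1, 42.5 and 56.1 in survival controls and 18.3, 13.7, 30.6, 30.1 and 17.6 in survival knockouts. The groups overlapped, and the log2 fold change was -0.79 (SE 0.30, adjusted p = 0.437). H1f3, H1f5 and H1f10 had acute estimates of 0.08, 0.48 and 0.08 and survival estimates of -0.51, -0.52 and -0.36. H1f1 was not tested (mean 9.14 in acute and 7.26 in survival). The summed H1 value followed H1f0: 2585 ± 295 in acute controls, 1968 ± 368 in acute knockouts, 2474 ± 511 in survival controls and 2549 ± 269 in survival knockouts.

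Of the 18 H2A genes, 11 were tested in each table and none was called. H2ac24 had an acute log2 fold change of 0.06 with an interval from -0.17 to 0.30, and without acute knockout 3 it was -0.0012. Its survival controls had 20107, 24212, 23752, 16641 and 20356 and the knockouts 14416, 14471, 17180, 20728 and 14304. Of the 5 knockouts, 4 lay below 4 of the controls, while control 4 and knockout 4 crossed over. The survival estimate was -0.38 (SE 0.12, unadjusted p = 0.00796, adjusted p = 0.342), the lowest unadjusted p among the members of that table.

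H2ac10, an H2A gene whose annotated model holds no stem-loop, showed the second lowest p there. Its survival controls had 106, 84.5, 122, 85.7 and 153 and its knockouts 53.3, 66.6, 63.6, 116 and 44.2, and 4 of the 5 knockouts lay below all controls. The estimate was -0.72 (SE 0.25, adjusted p = 0.383), and the acute estimate was 0.36 (SE 0.35). H2ac18 had a survival estimate of -0.86 (SE 0.39, adjusted p = 0.553) and an acute estimate of 1.04 (SE 0.93), with acute controls spread from 0 to 63.8. H2ac4 had 19.1, 20.8, 24.1 and 20.1 in acute knockouts against controls from 9.10 to 26.9 (median 11.2), an estimate of 0.70 (SE 0.31, adjusted p = 0.106). All 4 knockouts lay above 5 of the 6 controls, and control 4 lay above all of them.

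The remaining tested H2A genes had wide or near-zero estimates. H2ac25, the most abundant H2A gene after H2ac24, averaged 317 ± 35.7 and 297 ± 26.4 in acute controls and knockouts and 324 ± 40.3 and 357 ± 34.8 in survival controls and knockouts. H2ac11, at 125 ± 26.8 in acute controls, had estimates of -0.04 and -0.23. H2ac15, H2ac8, H2ac13 and H2ac19 had acute estimates of 0.63, 0.34, 0.02 and 0.02 and survival estimates of -0.36, -0.28, -0.45 and -0.06. H2ac12 was tested in the acute table only (-0.46) and H2ac23 in the survival table only (-1.05, interval from -2.89 to 0.80). H2ac22 was the most abundant untested member of the acute table, with a mean of 10.6.

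H2bc12 was the only member called higher in the acute knockouts. It encodes a core H2B protein, and its annotated transcript ends 30 bases past a stem-loop. The acute controls ranged from 41.3 to 56.3 (median 49.2), and the knockouts had 77.5, 62.4, 68.7 and 65.5. Every knockout lay above every control. The means were 48.9 ± 5.92 (SD, n = 6) and 68.5 ± 6.53 (SD, n = 4), a log2 fold change of 0.48 (SE 0.15, adjusted p = 0.0331). Groups without overlap were found for 2 of the 52 tested members, H2bc12 and H4c2, and for 22.7% of all genes tested in the acute table.

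The H2bc12 call was kept in 9 of 19 alternatives. It was lost without acute control 3, 4 or 5 or acute knockout 1 or 3 (adjusted p from 0.0535 to 0.0806), with knockouts 2 and 3 left out together (0.54, adjusted p = 0.114), with every gene above 0 in at least 4 libraries tested (adjusted p = 0.0512), under quantile normalization (0.15, adjusted p = 0.511) and with the replicate block (0.48, adjusted p = 0.151). Taking the non-T-cell score into the fit, the estimate was 0.52 (adjusted p = 0.878). Only 24.7% of its 31-base words were unique. Survival libraries averaged 59.1 ± 8.26 in controls and 59.4 ± 13.6 in knockouts (SD, n = 5 each), an estimate of -0.01 with an interval from -0.42 to 0.40.

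**Figure D4:**
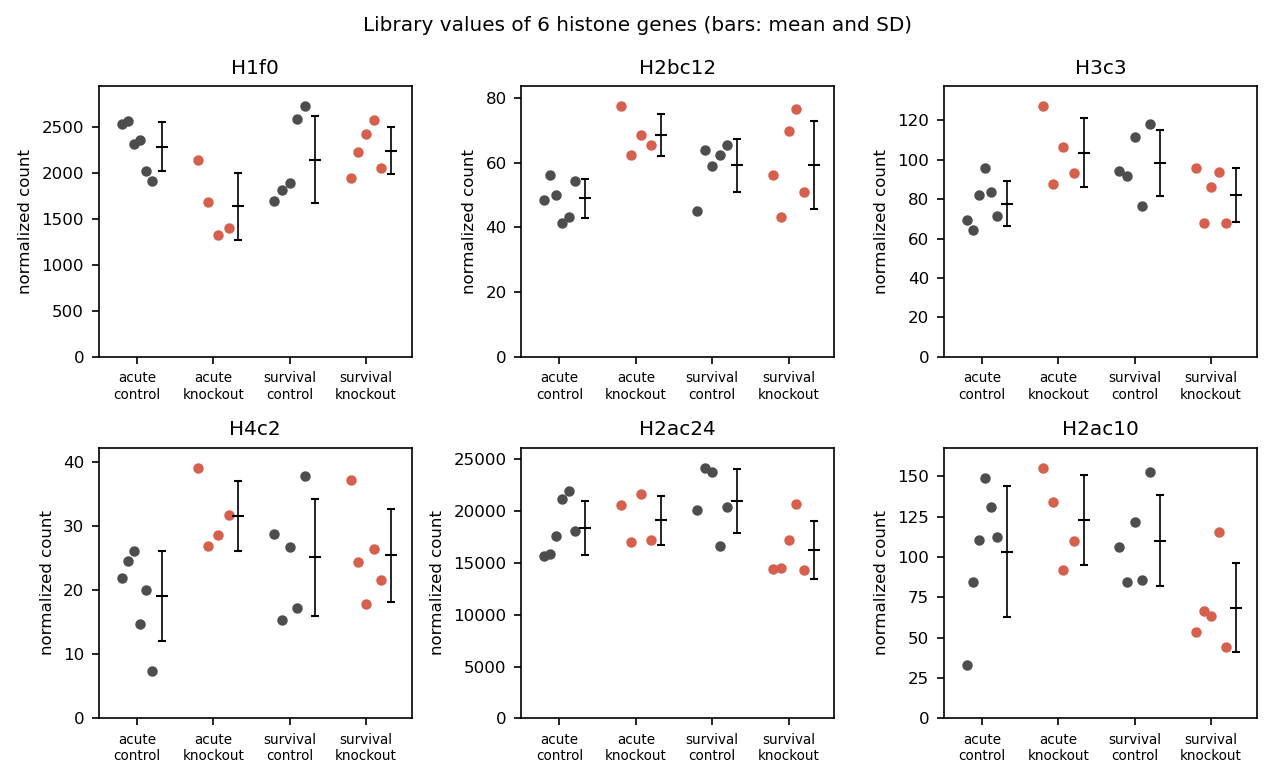
Normalized counts of H1f0, H2bc12, H3c3, H4c2, H2ac24 and H2ac10 in each library of the 4 groups, with the mean and SD beside the points. The acute knockouts of H2bc12 (62.4 to 77.5) and H4c2 (26.8 to 39.1) lie above all acute controls, and 3 of 4 acute knockouts of H1f0 lie below them.

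H2bc4 and H2bc27 had negative acute estimates that did not pass. H2bc4 ranged from 121 to 179 in acute controls (median 142) and had 114, 109, 110 and 123 in knockouts, an estimate of -0.32 (SE 0.13, adjusted p = 0.0695). H2bc27 ranged from 109 to 157 in acute controls (median 126) and had 86.6, 108, 92.2 and 111 in knockouts, an estimate of -0.36 (SE 0.14, adjusted p = 0.0770). For both genes most knockouts lay below the lowest control, and scaling to Trbc1 and Trbc2, which moved the median of all genes from -0.02 to 0.35, moved both along with it (to 0.05 and 0.02). Their survival estimates stood at -0.05 and -0.04.

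Most other H2B genes were low. H2bc21, a polyadenylated H2B gene, averaged 270 ± 37.0 and 244 ± 29.5 in acute controls and knockouts, an estimate of -0.14, and 0.06 in the survival table. H2bc11 and H2bc8 had acute estimates of 0.39 and 0.32 and survival estimates of -0.11 and -0.47. H2bc6 stood at 0.19 (acute) and -0.81 (survival, SE 0.37, adjusted p = 0.553), and its highest library was survival control 5 with 40.5. H2bc9, H2bc14, H2bc13 and H2bc3 had acute estimates of -0.30, 0.12, -0.37 and 0.18 and survival estimates of -0.18, -0.12, 0.23 and -0.14. H2bc7 was tested in the acute table only (0.57). H2bc23 had the widest interval of any member, from -0.83 to 4.01 in the acute table, since it was listed at 0 in 4 of 10 libraries.

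Among the H3 genes, 10 were tested in the acute and 9 in the survival table, and none was called. H3c3, whose annotated transcript ends 74 bases past its stem-loop, was the most abundant of them. The acute controls ranged from 64.3 to 95.7 (median 76.6), and the knockouts had 127, 87.5, 106 and 93.2. The knockouts lay in the upper part of the control range or above it, with an estimate of 0.41 (SE 0.16, adjusted p = 0.0701). Survival controls had 94.2, 91.7, 112, 76.5 and 118 and survival knockouts 95.6, 68.0, 86.4, 94.0 and 67.7, an estimate of -0.25 (SE 0.17, adjusted p = 0.687).

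All 9 tested H3 genes had a negative estimate in the survival table, from -0.73 for H3c10 to -0.07 for H3c1. H3c6 had 19.1, 27.1, 27.1, 21.003 and 52.2 in survival controls and 15.3, 20.9, 19.1, 16.3 and 14.4 in knockouts, an estimate of -0.65 (SE 0.28, adjusted p = 0.512). Control 5 was the highest library, and without it the groups still overlapped. H3c13, H3c2, H3c11, H3c7 and H3c8 had survival estimates of -0.62, -0.43, -0.16, -0.29 and -0.12. H3c4 and H3c15 were tested in the acute table only, at -0.06 and -0.03. The summed H3 value was 229 ± 38.7 in acute controls and 267 ± 39.6 in acute knockouts, and 265 ± 69.3 in survival controls and 204 ± 28.1 in survival knockouts. Survival control 5 held the highest H3 sum (375) and the highest H4 sum (717) of its group.

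The H4 genes encode the core histone H4, and 12 were tested in the acute and 9 in the survival table with no call. H4c9 was the most abundant, at 347 ± 29.5 and 334 ± 31.8 in acute controls and knockouts and 397 ± 17.6 and 366 ± 52.4 in survival controls and knockouts. Its estimates of -0.05 and -0.13 had intervals within -0.34 and 0.14, the narrowest of the family in the acute table. H4c2 ranged from 7.34 to 26.2 in acute controls (median 20.9) and had 39.1, 26.8, 28.5 and 31.6 in acute knockouts. The groups did not overlap, yet the estimate of 0.78 (SE 0.33, adjusted p = 0.0921) did not pass. H4c2 averaged 25.1 ± 9.14 and 25.4 ± 7.24 in survival controls and knockouts. H4c4, at 38.0 ± 5.60 in acute controls, had estimates of 0.14 and -0.12. The other tested H4 genes averaged under 25 normalized counts, with acute estimates from -0.39 for H4c8 to 0.57 for H4c18. H4c3, H4c12, H4c16 and H4c17 had acute estimates of 0.12, 0.31, 0.39 and 0.46 and survival estimates of 0.13, -0.32, 0.41 and -0.48. H4c6, H4c11 and H4c14 were tested in the acute table only, at -0.07, 0.29 and 0.57.

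The change in H1f0 and in H3c3 differed between the arms. Tables were scaled separately, so fold changes and not levels were compared, in a limma fit over all 20 libraries that tested 45 members. The survival fold change less the acute one was 0.58 (SE 0.20, adjusted p = 0.0415) for H1f0 and -0.66 (SE 0.23, adjusted p = 0.0425) for H3c3, where 20.2% of all 15673 genes were called. An unadjusted p under 0.05 was reached by 10 members (22.2%), 9 of them with a lower survival fold change, where 33.4% of all genes reached it. The median over the members was -0.47 against 0.03 over all genes. Both calls lay near the threshold. The H1f0 call was lost without any of acute controls 1 to 4, acute knockouts 2 to 4, survival controls 1 to 3 and survival knockouts 2 to 4 (adjusted p from 0.0590 to 0.103). The H3c3 call was lost without any of acute controls 1, 2, 3 and 6, acute knockouts 1 and 3, survival controls 1, 2, 3 and 5 and survival knockouts 2, 3 and 5 (0.0501 to 0.0848). Scaling to Trbc1 and Trbc2 shifts all genes alike, and moved the median difference of all genes from 0.03 to -0.43 and that of H1f0 to 0.12 (adjusted p = 0.667). Quantile normalization brought that of H3c3 to -0.295 (adjusted p = 0.454).

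H2A and H2B genes are often arranged head to head, so that a pair shares 1 promoter region. Promoters are shown for both called members and for H2ac24, as RefSeq windows of 300 bases (250 before the start and 50 after) in build GRCm38.p6, with motif matches in capitals. The motifs searched on both strands were the octamer ATTTGCAT, CCAAT and TATAAA.

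H2bc12, chr13:22035571-22035870, plus strand: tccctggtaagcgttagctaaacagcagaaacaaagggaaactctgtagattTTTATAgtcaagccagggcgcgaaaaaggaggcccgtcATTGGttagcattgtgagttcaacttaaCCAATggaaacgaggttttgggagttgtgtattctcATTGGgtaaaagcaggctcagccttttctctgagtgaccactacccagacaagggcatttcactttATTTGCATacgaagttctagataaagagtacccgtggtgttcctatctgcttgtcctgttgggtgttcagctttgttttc
H2ac24, chr13:21833426-21833725, minus strand: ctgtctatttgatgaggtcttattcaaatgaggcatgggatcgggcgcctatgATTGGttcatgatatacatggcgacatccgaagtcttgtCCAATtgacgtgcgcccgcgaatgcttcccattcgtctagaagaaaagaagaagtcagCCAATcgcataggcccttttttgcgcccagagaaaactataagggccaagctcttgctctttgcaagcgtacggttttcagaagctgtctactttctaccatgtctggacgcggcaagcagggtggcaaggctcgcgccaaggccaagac
H1f0, chr15:79027962-79028261, plus strand: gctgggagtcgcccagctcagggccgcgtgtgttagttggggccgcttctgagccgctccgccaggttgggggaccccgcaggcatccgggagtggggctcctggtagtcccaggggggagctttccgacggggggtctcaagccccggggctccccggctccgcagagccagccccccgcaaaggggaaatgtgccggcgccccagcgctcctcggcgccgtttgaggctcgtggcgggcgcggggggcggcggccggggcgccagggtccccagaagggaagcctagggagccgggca

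A promoter window was found for 55 members. The octamer was present in 5 of 15 H2A and 5 of 13 H2B windows and in no H1, H3 or H4 window, against 1.74% of all 32851 promoters. Paired H2A and H2B windows overlap, as given below, and both strands were searched, so a site in the shared part counts in both classes. CCAAT was present in 15 of 15 H2A, 13 of 13 H2B and 9 of 9 H3 windows, in 5 of 7 H1 and 3 of 11 H4 windows, and in 37.41% of all promoters. TATAAA was present in 4 of 7 H1, 9 of 15 H2A, 6 of 13 H2B, 4 of 9 H3 and 8 of 11 H4 windows, against 13.62% of all promoters. The H2bc12 window held all 3 motifs, that of H2ac24 held CCAAT only, and that of H1f0 held none of these letters.

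In 8 H2A and H2B pairs the windows overlapped on opposite strands, by 252 to 279 bases. H2bc12 is paired with H2ac12, and their windows share 277 bases. H2ac12 averaged 10.9 ± 5.16 in acute controls and 7.60 ± 3.34 in acute knockouts, an estimate of -0.46 with an interval from -1.26 to 0.34, beside 0.48 for H2bc12. Of the 4 pairs with both genes tested in the acute table, 1 had estimates of the same sign (H2ac8 with 0.34 and H2bc8 with 0.32). Of the 4 such pairs in the survival table, 3 had the same sign.

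Genes that make, process and deposit histones were taken from lists chosen with earlier results of these data known. Of all 16363 genes tested in the acute table, 31.4% were called, which is the share to set beside the counts of these lists. Of 21 tested genes of histone mRNA 3′ end processing and decay, 1 rose and 1 fell in the acute knockouts. Tut4, which adds uridines to RNA ends, rose from 280 ± 17.1 to 455 ± 86.8 without overlap (log2 fold change 0.68, SE 0.11, adjusted p = 0.00101), and Ncbp2, a subunit of the cap-binding complex, fell (-0.22, SE 0.06, adjusted p = 0.0219). Slbp stood at 0.11 (adjusted p = 0.132), Npat, a coactivator of histone genes, at -0.08 (adjusted p = 0.380), and Casp8ap2, a histone mRNA processing factor, at -0.04 (adjusted p = 0.667). Their survival estimates were 0.08, 0.10 and 0.08. Of 20 chaperone and assembly genes, 1 rose and 1 fell: the H3-H4 chaperone Asf1b rose from 1770.2 ± 138 to 2253 ± 91.0 (0.35, adjusted p = 0.00131), and its paralog Asf1a fell from 1102 ± 95.9 to 909 ± 65.4 (-0.28, adjusted p = 0.0137). Hat1, which acetylates new H4, stood at 0.02.

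None of 8 tested replacement variants passed in the acute table, where 16.7% of all genes tested were called higher and 14.7% lower. H2az1 stood at 0.04, H2ax at 0.17, H3f3a at -0.03 and H3f3b at -0.23 (adjusted p = 0.0751). Of 24 S phase genes, 3 rose and 2 fell: Ccne1 (cyclin E1, 0.40), Rrm2 (ribonucleotide reductase, 0.22) and Cdk2 (0.20) rose, and Rfc3 (-0.25) and Mcm6 (-0.17), both of the replication machinery, fell. Of 16 G2 and mitosis genes, 12 rose and 0 fell, with a median of 0.34. The proliferation marker Mki67 rose from 14773 ± 1729 to 22182 ± 1536 (0.59), the mitotic kinase Plk1 by 0.52 and the kinetochore gene Cenpf by 0.51. With the libraries scaled to Trbc1 and Trbc2, which moved the median of all genes from -0.02 to 0.35, 76 genes of the 6 lists were called and all were higher. Taking the non-T-cell score into the fit, 0 genes of the lists were called. The share of all genes called in these fits is not given here. For the survival arm limma called 0 of 94 tested genes of these lists, where 0.0124% of all 16136 genes tested were called.

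Small RNAs made without a poly(A) tail are given beside the histone genes because most replication-dependent histone mRNAs lack the tail too. Rn7sk, the 7SK RNA, lay at 263 to 1111 in acute controls against 267 to 855 in knockouts of that arm, and at 321 to 1392 against 215 to 1067 in the survival arm. Its spread was wide within each group, with estimates of -0.11 (SE 0.44) and -0.83 (SE 0.49). Rn7s1 and Rn7s2, copies of the signal recognition particle RNA with identical values in the tables, stood at -0.59 and -0.49, and Rpph1, the RNase P RNA, at 0.34 and -0.08. Scarna2 stood at 0.42 in the acute and -1.19 in the survival table (adjusted p = 0.334), and Terc, the telomerase RNA, at -0.35 in the acute table. Rmrp, the RNase MRP RNA, was the 1 of 7 that passed in the acute table, where 31.4% of all genes tested did. Rmrp averaged 14.3 ± 8.29 in acute controls and 3.99 ± 3.07 in acute knockouts (-1.70, SE 0.52, limma adjusted p = 0.0258). Its 4 libraries at 10 or more were all controls, so it met the filter only through the group where it was higher. The groups overlapped, with the lowest control at 5.95 and the highest knockout at 7.13. No support is drawn from its p-value. All 5 tested in the survival table had negative estimates, beside 39 of 47 histone genes. Rn7s1 and Rn7s2 count as 2 of these 5 although their values are identical, and the median of -0.49 is their estimate. The part of these small RNAs in the histone values was not tested.

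**Figure D5:**
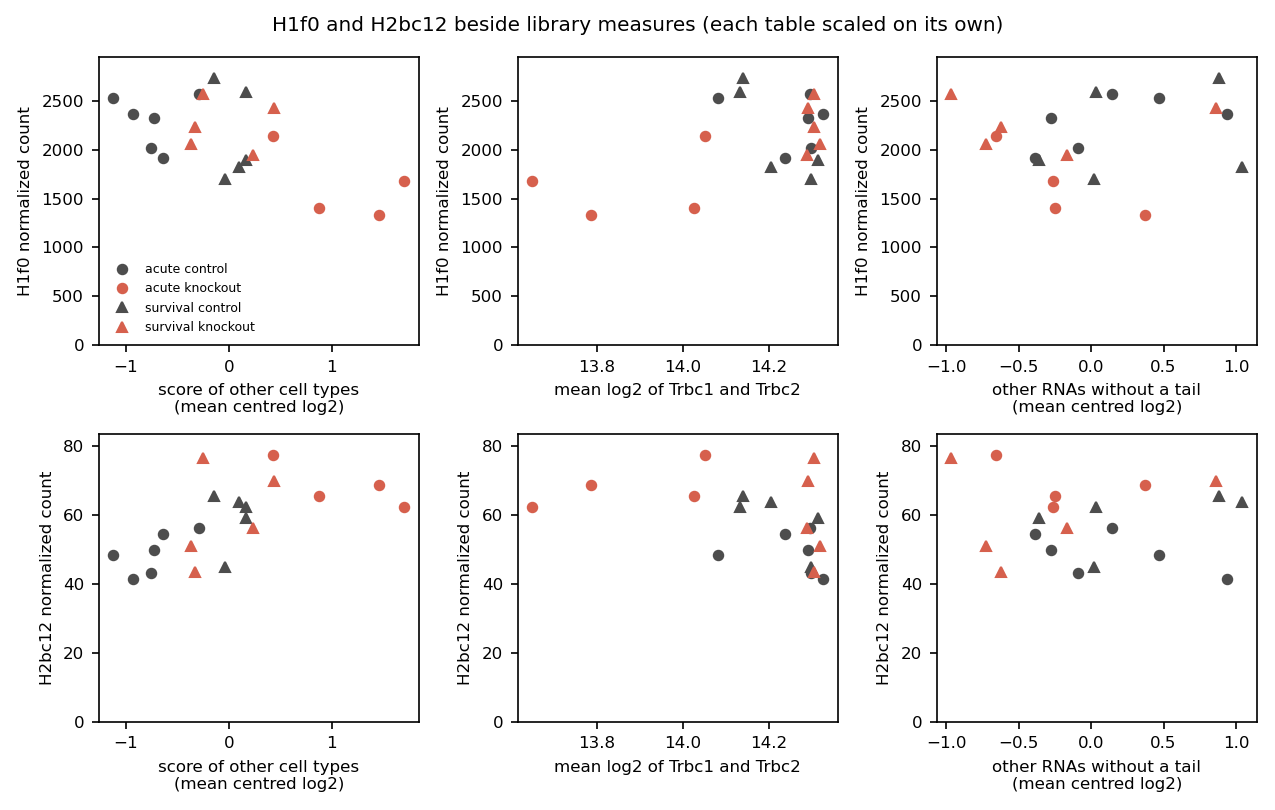
Normalized counts of H1f0 (top) and H2bc12 (bottom) in every library against the non-T-cell score, the mean log2 of Trbc1 and Trbc2, and the mean centred log2 of the other RNAs without a tail; circles are acute, triangles survival, gray controls and red knockouts. The acute knockouts lie at the high end of the score (0.43 to 1.71) and low end of Trbc (13.65 to 14.05).

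Summed over the family, the total was mostly H2ac24 in both arms. The sum of all members averaged 23298 ± 2632 in acute controls and 23493 ± 2497 in acute knockouts, a ratio of 1.01, and 26094 ± 2866 and 21138 ± 3144 in survival controls and knockouts, a ratio of 0.810. Without H2ac24 the ratios were 0.890 and 0.968, and without H1f0 as well they were 1.04 and 0.911. Without H2ac24 the acute ratio lay below 1 only with H1f0 included. The summed values overlapped between groups in each table and were not tested.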

How the data were processed

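Polyadenylated RNA of 20 spleens was sequenced. The authors deposited a table per arm whose values are a signal of DESeq-normalized counts, scaled separately in each table and not whole numbers. Per the submitters' processing notes kallisto 0.46.0, DESeq and GRCm39 were used. Between 56.0% and 81.9% of low values lay within 0.1 of a whole multiple of a common step, so reads were not recovered and no count model was run. Depth in reads is unknown. Genes with at least 10 normalized counts in at least 4 acute or 5 survival libraries were tested with limma 3.58.1 in R 4.3.3 on log2(value + 1), with a mean-variance trend and Benjamini-Hochberg adjustment over all genes tested; fold changes on this scale understate those of low genes. The script was tested on simulated data. Named were Acly, every tested member, the most abundant untested members, and from the lists the called genes with the largest change, fixed regulators and all tested RNAs without a tail. The members and lists were chosen with earlier results of these data known. Alternatives covered the filter, pseudocount, scaling, trend, the non-T-cell score as a covariate, the replicate block and left-out libraries. Transcripts were from GENCODE M21 and promoters from RefSeq, both on GRCm38, and no gene coordinates were carried to GRCm39.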

Additional observations from a re-analysis of the deposited data

Results flagged for a closer look

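In 6 of 80 groups of values checked, a library stood apart from the others of its group, where chance would mark about 1 in 20. H2ac4 was 26.9 in acute control 4, with the next library at 13.3. H1f4 was 33.6 in acute knockout 1, with the next at 29.5. H2bc4 was 253 in survival knockout 2, with the next at 164, and H2bc27 was 157 in survival knockout 4, with the next at 136. H3c6 was 52.2 in survival control 5, with the next at 27.1. H2ac25 was 297 in survival knockout 3, the lowest of its group, with the next at 360.1.

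Of Acly and the 45 members tested in both tables, 3 had a survival fold change that differed from the acute one; genes of the other lists were not screened here. The difference of log2 fold changes was -0.92 for Acly (limma adjusted p = 0.000442), 0.58 for H1f0 (adjusted p = 0.0415) and -0.66 for H3c3 (adjusted p = 0.0425).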

How the results depend on the processing

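The number of members called in the acute table (2) became 1 with the wider filter, 11 (all higher) when scaled to Trbc1 and Trbc2, 0 with the non-T-cell score as a covariate and 0 without acute knockouts 2 and 3. The 2 calls in the difference between tables became 0, 22 (all lower), 0 and 0 in that order, and 1 without the trend. Genes of the pathway lists called in the acute table (22) became 76 when scaled to Trbc1 and Trbc2, 0 with the covariate and 10 without knockouts 2 and 3. The share of all genes called under each of these settings is not given here. The counts are therefore not a result about the members or the lists. Acly in the acute table stood at -0.081 when scaled to Trbc1 and Trbc2 (adjusted p = 0.653) and at -0.76 with the covariate (adjusted p = 0.438), and its difference at -0.56 with the covariate (adjusted p = 0.768). The summed ratios without H2ac24 were 0.890 and 0.968. Scaling to Trbc1 and Trbc2 moved the median of all genes to 0.35 in the acute table and to -0.43 in the difference, and the score separates the acute groups without overlap. The cause of the other shifts was not tested. Leaving out a library gave 1 to 3 acute members, 14 to 23 acute pathway genes, 0 to 4 members in the difference and 0 in survival.

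Several estimates changed sign, not only those near 0. Of 52 acute members, 15 changed sign under quantile normalization, 13 when scaled to Trbc1 and Trbc2 and 18 with the covariate. In the acute table H1f2 was -0.092 under quantile normalization, -0.37 with the covariate and -0.064 without knockouts 2 and 3. H4c9 was 0.32 when scaled to Trbc1 and Trbc2, 0.088 with the covariate and 0.055 without knockouts 2 and 3, and H2bc21 was 0.23, 0.23 and 0.0040. H2ac25 was 0.29 and 0.076 under the first 2 of these. H2bc27 and H2bc4, at -0.36 and -0.32 as reported, were 0.019 and 0.051 when scaled to Trbc1 and Trbc2. In the survival table H2bc12 was 0.0019 under quantile normalization and 0.028 with the covariate, and H2bc21 was -0.025 when scaled to Trbc1 and Trbc2. With a library left out, acute H2ac24 ranged from -0.0012 to 0.11, survival H2bc12 from -0.11 to 0.092 and survival H2bc21 from -0.023 to 0.14.

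With the replicate block the acute table gave 1 member (H1f0, with H2bc12 lost) and 13 pathway genes, and the difference 1 member (H1f0). Same-numbered libraries correlated between -0.07 and 0.14 and not every library matched its own number best, so they share only a number.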
